A study of Homo sapiens with 16 samples.

Results

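Interferon-stimulated genes are the genes that cells switch on when an interferon binds its receptor, and 39 of them, a fixed list of gene symbols, were followed here among the 26258 genes of the table. The cells were Huh7 and Hep3B, human hepatocellular carcinoma lines, each as a parental culture, a culture named DMSO, and 2 cultures resistant to Sorafenib, an oral multikinase inhibitor used against this cancer. Cells named IR had been raised in increasing drug concentrations and cells named CR in a constant high one, and the labels give 7 µM Sorafenib for the libraries of both. Parental and DMSO libraries are labelled untreated, so a resistant culture differed from its parental culture in drug exposure and in resistance together, and these cannot be told apart. Each of the 8 groups had 2 libraries of poly(A) RNA, 16 in all. The study's methods describe biological triplicates, while the labels do not say whether the libraries used here came from separate cultures.

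In the textbook scheme, type I and type III interferons bind paired receptors, the kinases JAK1 and TYK2 phosphorylate STAT proteins, and a complex that holds STAT2 and IRF9 binds the interferon-stimulated response element (ISRE) in target promoters. The products bind or degrade viral RNA (IFIT and OAS proteins), block viral entry (IFITM proteins), attach the ubiquitin-like protein ISG15 to other proteins, or sense RNA and feed the pathway further. In cancer cells a set of these genes can also be expressed over long periods without infection.

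Libraries held 46613302 to 76860251 gene-assigned reads, and values are CPM, reads of a gene scaled to a common library total. Replicates of Huh7-IR and of Huh7 DMSO lay further apart than those of the other groups, with an SD of the replicate difference over genes of 0.566 and 0.571 on the log2(CPM + 1) scale against 0.236 to 0.31. The summed level of 15 hepatocyte genes was 11320 to 16850 CPM in parental, 24070 to 29430 CPM in DMSO and 154 to 2955 CPM in resistant Huh7 cells. In Hep3B it was 20410 to 25480 CPM in parental, 37590 to 44580 CPM in DMSO and 2410 to 11220 CPM in resistant cells, so against parental cells the sum was lower in resistant and higher in DMSO libraries. Their part in the results was not tested, and in bulk RNA fewer cells of a kind and less RNA per cell cannot be told apart. Leukocyte markers summed to at most 6.9 CPM in any library, and endothelial markers to at most 6.35 CPM. The 6 fibroblast markers, which include collagen genes, summed to 284.5 to 336.5 CPM in parental Huh7, 313.2 to 338.0 CPM in Huh7-IR and 491.3 to 771.9 CPM in Huh7-CR, with 4 called higher and 1 lower in each of these resistant cultures. In Hep3B they summed to 27.7 to 37.1 CPM in parental, 33.2 to 86.8 CPM in IR and 68.6 to 87.0 CPM in CR cells, and their part in the results was not tested either.

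Against parental cells, more interferon-stimulated genes were higher than lower in every resistant culture, and so were more of all tested genes. In Huh7 the number higher was 22 of 39 for IR and 14 for CR cells, beside 31.1% and 20.9% of all tested genes. In Hep3B it was 8 for IR and 17 for CR cells, beside 15.7% and 2997 of 15019. Against DMSO cells Hep3B-IR had 4 members higher and 5 lower. A gene was called when the limma p-value, adjusted over all 15019 tested genes by the Benjamini-Hochberg method, was below 0.05 and the log2 fold change was at least 0.58 in size. Of the 39 genes, 33 reached 1 CPM in at least 2 libraries and were tested, and the other 6 (IFI27, OASL, XAF1, BST2, RSAD2, TRIM22) count as not called. Fold changes are on the log2(CPM + 1) scale, which understates the change of genes with low values.

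In Huh7-IR, 22 members (56.4%) were higher and 0 lower, where 31.1% of all tested genes were higher and 17.8% lower. Huh7-CR had 14 members (35.9%) higher and 2 lower against 20.9% and 13.6% of all tested genes. For Hep3B-IR the counts were 8 higher (20.5%) and 1 lower against 15.7% and 11.4%. Over all 39 members that share is near the background, but member shares include the untested genes and the background does not. With edgeR, DESeq2 or the line's libraries alone, 11 members were higher in Hep3B-IR, and with a pseudocount of 4 CPM 5 were. Hep3B-CR showed 17 members (43.6%) higher and 0 lower, against 2997 of the 15019 tested genes higher and 12.3% lower. With calls in either direction, the background was 48.8%, 34.5%, 27.1% and 32.2% of tested genes in that order. The median log2 difference over all 39 members was 1.33, 0.45, 0.36 and 0.68, beside 0.19, 0.07, 0.06 and 0.11 over all tested genes. IR and CR share their parental libraries, so their counts are not independent of each other. Against the DMSO libraries in place of the parental ones, Hep3B-IR had 4 members higher and 5 lower, while the other 3 cultures had 20 higher and 2 lower, 14 and 3, and 15 and 1. Without Hep3B-IR replicate 1 the Hep3B-IR count fell to 4, and without Hep3B parental replicate 2 the Hep3B-CR count fell to 11.

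**Figure D1:**
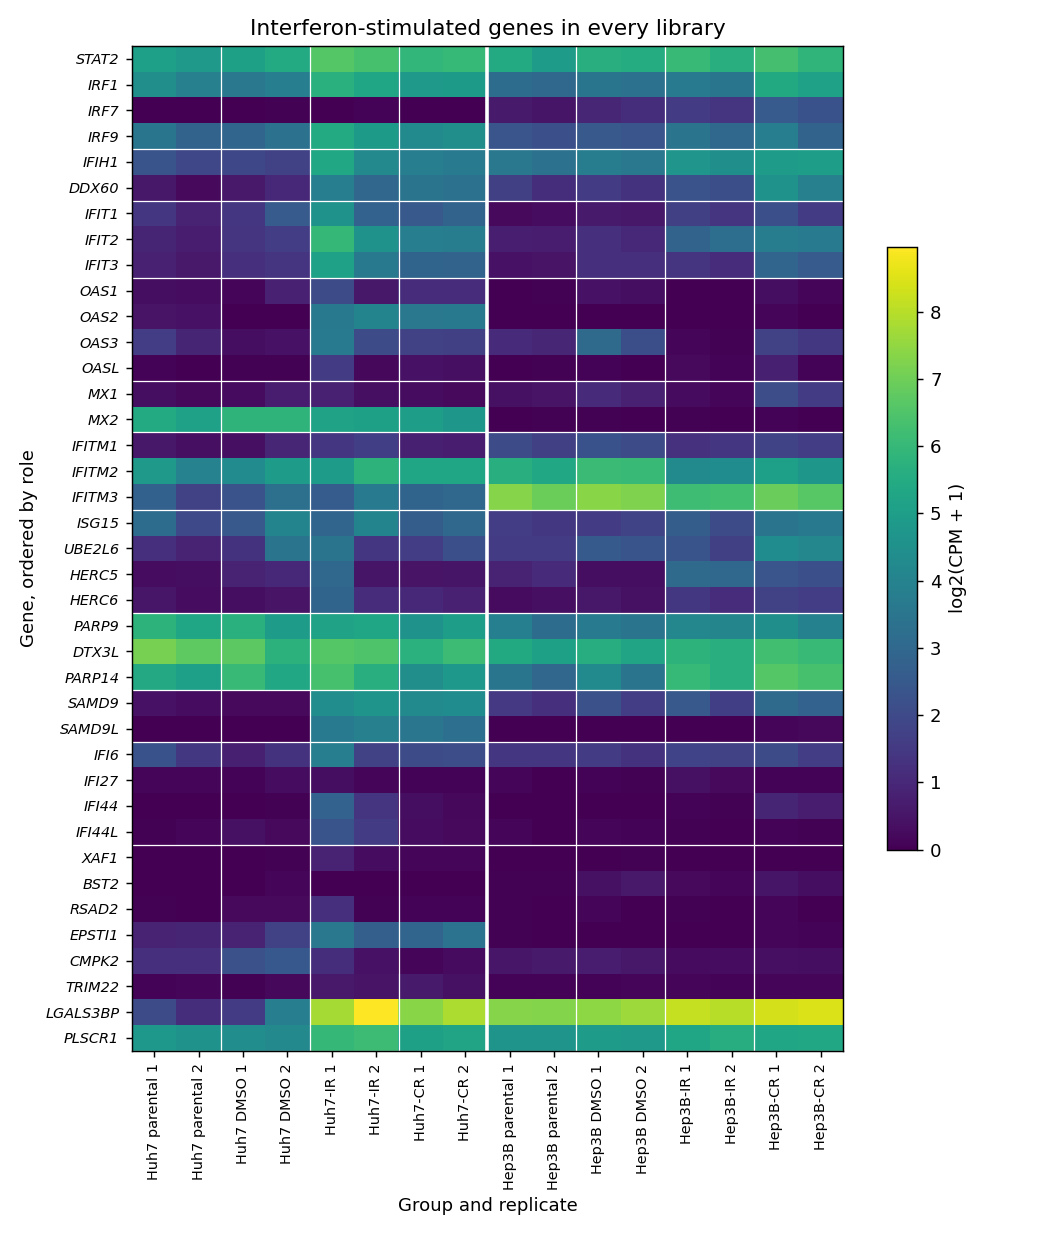
Level of each of the 39 interferon-stimulated genes (rows, by role) in each of the 16 libraries (columns, by group and replicate), as log2(CPM + 1) from dark (0) to yellow; the thick white line separates Huh7 from Hep3B. The SAMD9L, OAS2 and LGALS3BP rows brighten in Huh7-IR and Huh7-CR, and the IRF7 row stays dark in Huh7.

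**Figure D2:**
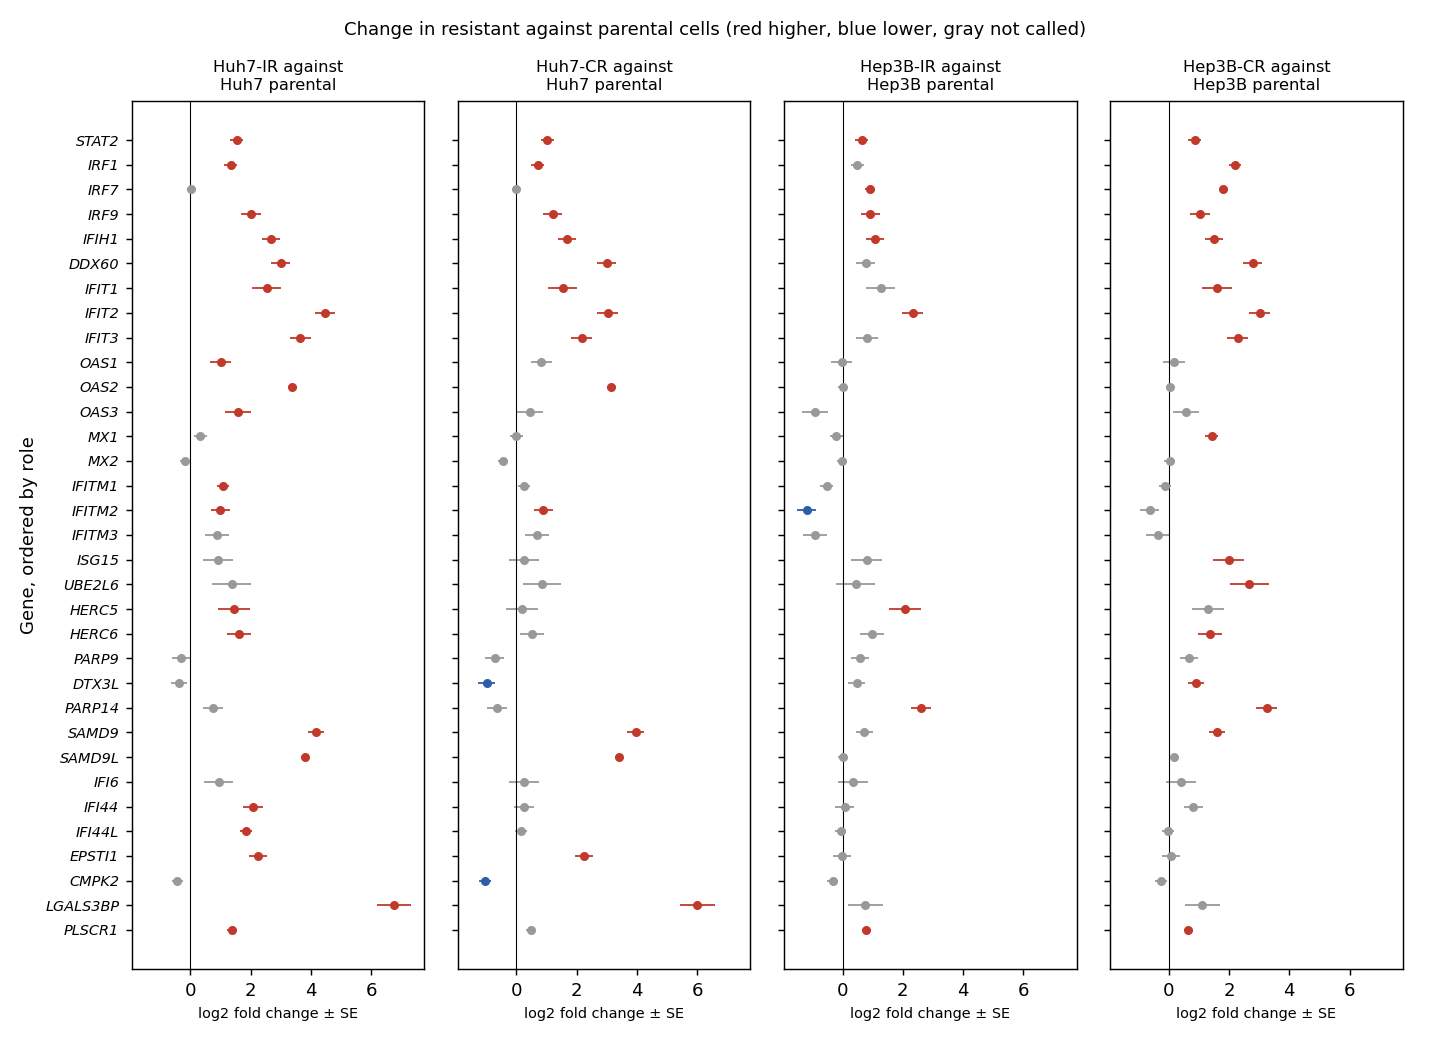
Log2 fold change with its standard error (horizontal axis) of the 33 tested members (vertical axis, by role) in each resistant culture against its parental culture, 2 libraries a group. Red points were called higher, blue ones lower and gray ones not called; 22, 14, 8 and 17 points are red from left to right.

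The promoters of 6 members that led a comparison are shown here because most carry the sequence through which the interferon pathway is known to act, and because the neighbours SAMD9 and SAMD9L differ in an exact match to it. Capitals mark the ISRE core, searched as GAAA, any 2 bases and GAAA again on both strands (TTTC, any 2 bases and TTTC where the core lies on the other strand), over 200 bases before to 10 bases after the RefSeq start in GRCh38.p14. The stretches are chr10:89327797-89328006 on the plus strand for IFIT3, chr7:93117970-93118179 and chr7:93148376-93148585 on the minus strand for SAMD9 and SAMD9L, chr3:122680639-122680848 and chr3:122564138-122564347 on the plus strand for PARP14 and DTX3L, and chr17:78979914-78980123 on the minus strand for LGALS3BP.
IFIT3: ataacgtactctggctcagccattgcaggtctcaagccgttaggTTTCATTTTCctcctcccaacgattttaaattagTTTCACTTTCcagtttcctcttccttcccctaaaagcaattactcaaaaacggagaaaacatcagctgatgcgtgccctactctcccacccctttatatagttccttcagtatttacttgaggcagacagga
SAMD9: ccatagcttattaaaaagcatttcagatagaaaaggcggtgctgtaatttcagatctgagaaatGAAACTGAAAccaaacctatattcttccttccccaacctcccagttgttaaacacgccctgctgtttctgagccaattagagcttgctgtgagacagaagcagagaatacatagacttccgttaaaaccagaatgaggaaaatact
SAMD9L: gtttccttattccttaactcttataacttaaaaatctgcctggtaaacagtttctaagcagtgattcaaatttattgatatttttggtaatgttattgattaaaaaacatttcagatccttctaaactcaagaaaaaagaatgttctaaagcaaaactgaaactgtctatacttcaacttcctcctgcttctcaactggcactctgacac
PARP14: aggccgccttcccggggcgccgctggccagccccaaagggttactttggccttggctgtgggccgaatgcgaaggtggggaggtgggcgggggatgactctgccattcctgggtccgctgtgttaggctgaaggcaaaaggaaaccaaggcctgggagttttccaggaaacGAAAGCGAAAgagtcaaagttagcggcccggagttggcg
DTX3L: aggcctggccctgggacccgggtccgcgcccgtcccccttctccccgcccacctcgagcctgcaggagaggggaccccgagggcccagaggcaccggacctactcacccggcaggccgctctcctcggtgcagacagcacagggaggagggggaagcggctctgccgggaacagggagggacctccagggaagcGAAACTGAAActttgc
LGALS3BP: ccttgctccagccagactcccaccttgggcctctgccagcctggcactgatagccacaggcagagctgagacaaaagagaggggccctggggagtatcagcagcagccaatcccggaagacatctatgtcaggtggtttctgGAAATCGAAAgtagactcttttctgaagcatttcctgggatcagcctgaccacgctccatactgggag

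IFIT3 held 2 cores, beginning 156 and 122 bases before the start. SAMD9 held 1 at 136 bases before it, LGALS3BP 1 at 58, PARP14 1 at 29 and DTX3L 1 at 6, while no core was found in these letters of SAMD9L. Over windows of 250 bases before to 50 after the start, 21 of the 32 members in the promoter table (65.6%) held the core, against 996 of 27305 promoters (3.65%). The gamma-activated sequence, searched as TTCNNNGAA, which reads the same on both strands, was in 10 of the 32 (31.2%) and in 2152 of all promoters (7.88%). Members with and without the core were both among those called: 13 of 21 with it and 6 of 11 without it were higher in Huh7-IR, and 10 of 21 and 5 of 11 in Hep3B-CR. In Huh7-CR the counts were 7 of 21 and 4 of 11, and in Hep3B-IR 4 of 21 and 2 of 11. A match is a run of letters and was not tied to binding. The search took exact matches only, so near matches count as without the core. The SAMD9L stretch holds such a near match, aaaactgaaa, which misses the pattern at its first base.

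Of the 4 listed transcription factors, STAT2 and IRF9, which bind the response element together, were called above parental cells in every resistant culture. In Hep3B-IR most alternatives lost both calls. IRF1 was higher in 3 of the 4 cultures, and IRF7 was higher in Hep3B alone. STAT2 was at 32.5 and 27.3 CPM in parental Huh7, 95.4 and 81.4 CPM in Huh7-IR and 59.5 and 63.7 CPM in Huh7-CR. In Hep3B it was at 43.9 and 29.9 CPM in parental, 65.7 and 48.8 CPM in IR and 78.8 and 57.0 CPM in CR cells. The resistant libraries did not overlap the parental ones in either line, and the log2 fold changes were 1.53 ± 0.22 (SE), 1.02 ± 0.22, 0.63 ± 0.22 and 0.87 ± 0.22 (adjusted p = 0.00011, 0.003, 0.047 and 0.0087). Against DMSO cells the STAT2 difference was 0.26 in Hep3B-IR and 0.50 in Hep3B-CR, and neither was called. In Hep3B-IR the STAT2 call was kept in 6 of 16 alternatives. It was lost with edgeR (0.5775) and DESeq2 (0.5621), both just below the fold threshold. With the line's libraries alone it was lost as well (limma, adjusted p = 0.071). The Hep3B calls were also lost without Hep3B parental replicate 2 (0.36 for IR, and 0.60 for CR with adjusted p = 0.11), without Hep3B-IR replicate 1 (0.42) and without Hep3B-CR replicate 1 (0.64, adjusted p = 0.093).

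IRF9 rose from 10.1 and 6.24 CPM in parental Huh7 to 43.4 and 28.5 CPM in IR and 18.6 and 20.5 CPM in CR cells. Hep3B parental cells had 4.17 and 3.57 CPM, IR cells 9.85 and 6.88 CPM and CR cells 13.1 and 6.17 CPM. Its log2 fold changes were 2.01, 1.20, 0.93 and 1.05, each ± 0.33 (adjusted p = 0.00027, 0.012, 0.049 and 0.025). Against DMSO cells the IRF9 difference in Hep3B-IR was 0.78 (limma, adjusted p = 0.080) and was not called. Of 16 alternatives, 7 kept the Hep3B-IR call. The Hep3B-IR call for IRF9 was lost when any 1 of the 4 libraries was left out, where adjusted p reached 0.28. In Hep3B-CR it was lost without either parental library or CR replicate 1 (adjusted p up to 0.25), and in Huh7-CR without Huh7 parental replicate 2 or Huh7-CR replicate 2 (adjusted p = 0.12 and 0.064). Exons of IRF9 share 1544 bases with another annotated gene on the same strand, so reads may belong to either.

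IRF1, an early-response factor that can act without the STAT2 complex, was at 20.3 and 14.1 CPM in parental Huh7 and 50.8 and 38.3 CPM in Huh7-IR. Hep3B parental libraries had 8.0 and 7.1 CPM, Hep3B-IR 11.9 and 10.2 CPM and Hep3B-CR 42.5 and 34.4 CPM. Hep3B-CR was thus 5.09-fold above parental cells (log2 fold change 2.20 ± 0.21, adjusted p = 1.2e-05), and above Hep3B-IR by 1.71 ± 0.21 on the log2 scale (adjusted p = 0.00028). Huh7-CR, at 27.7 and 28.8 CPM, exceeded parental cells by 0.71 ± 0.21 (adjusted p = 0.016), a call lost without Huh7 parental replicate 2, where the difference was 0.46, and without either Huh7-CR library (adjusted p = 0.064 and 0.075). IRF1 and the antisense gene IRF1-AS1 share 2805 exonic bases, and the strand setting of the counting is not given in the sources used here.

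IRF7, the amplifier of the type I response, was almost unread in Huh7, with 0 to 0.0644 CPM in all 8 libraries. In Hep3B it stood at 0.579 and 0.436 CPM in parental, 0.95 and 1.28 CPM in DMSO, 2.02 and 1.61 CPM in IR and 4.93 and 3.73 CPM in CR cells. The 4 Hep3B groups did not overlap, and CR cells were 8.53-fold above parental ones (log2 fold change 1.81 ± 0.15, adjusted p = 4e-06).

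IFIT proteins bind viral RNA and hinder its translation, and all 3 of their genes were higher in Huh7-IR, Huh7-CR and Hep3B-CR, and IFIT2 also in Hep3B-IR. IFIT2 was at 0.902 and 0.589 CPM in parental Huh7, 61.4 and 22.5 CPM in IR and 13.4 and 12.9 CPM in CR cells. Hep3B parental cells had 0.7 and 0.591 CPM, IR cells 6.21 and 8.41 CPM and CR cells 12.9 and 11.8 CPM. Every resistant library lay above every parental and DMSO library of IFIT2, and mean levels were 56.3-fold, 17.6-fold, 11.3-fold and 19.2-fold those of parental cells (adjusted p = 8e-07, 2.9e-05, 0.00032 and 4.3e-05). All 4 calls for IFIT2 were kept under every alternative run.

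IFIT3 went from 0.786 and 0.522 CPM in parental Huh7 to 34.0 and 11.2 CPM in IR and 6.45 and 6.3 CPM in CR cells. In Hep3B it was at 0.364 and 0.38 CPM in parental, 1.63 and 1.19 CPM in IR and 6.51 and 4.95 CPM in CR cells, while the DMSO libraries had 1.35 and 1.36 CPM. Hep3B-IR therefore overlapped DMSO cells and its difference from parental cells, 0.81 ± 0.35, was not called (adjusted p = 0.1). IFIT1, with log2 fold changes of 2.53, 1.53, 1.27 and 1.61, missed the threshold in the same culture alone. IFIT2 and IFIT3 share 65 and 94 exonic bases with LIPA on the opposite strand. Exons of IFIT2 also share 524 bases with another annotated gene on the same strand, so reads may belong to either.

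A group of members was switched on in both Huh7 resistant cultures and stayed near 0 in Hep3B. SAMD9L, a neighbour of SAMD9 on chromosome 7 and like it a restriction factor for poxviruses, had 0 reads in both parental Huh7 libraries, 11.9 and 14.1 CPM in Huh7-IR and 10.3 and 8.72 CPM in Huh7-CR. Set against a floor of 3 reads over the group, IR cells were at least 619-fold and CR cells at least 455-fold higher than parental ones. In Hep3B it had 0 reads in 6 of 8 libraries and 0.119 and 0.152 CPM in CR cells. SAMD9, separated from it by 12033 bases in GRCh37, was at 0.349 and 0.228 CPM in parental Huh7, 20.04 and 24.1 CPM in IR and 18.4 and 19.4 CPM in CR cells. Unlike SAMD9L, it was read in Hep3B as well, at 1.78 and 1.32 CPM in parental, 4.66 and 2.13 CPM in IR and 7.48 and 6.07 CPM in CR cells. The SAMD9 log2 fold changes were 4.16 ± 0.27 and 3.95 ± 0.27 in Huh7, 0.73 ± 0.27 in Hep3B-IR (adjusted p = 0.056) and 1.61 ± 0.27 in Hep3B-CR (adjusted p = 0.00064).

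OAS2, which makes the 2-5A messenger that activates RNase L, was at 0.378 and 0.362 CPM in parental Huh7 and at 0.0138 CPM and 0 in DMSO Huh7. Resistant cells had 11.4 and 15.5 CPM (IR) and 10.9 and 11.2 CPM (CR), 36.3-fold and 29.9-fold above parental cells (adjusted p = 1e-08 and 3e-08). No Hep3B library exceeded 0.106 CPM. The neighbours OAS1 and OAS3 on chromosome 12 rose in Huh7-IR only by the call (log2 fold changes 1.01 ± 0.35 and 1.59 ± 0.43), where OAS1 was at 3.2 and 0.493 CPM and OAS3 at 11.8 and 3.11 CPM in the replicates. In Huh7-CR the differences were 0.82 ± 0.35 and 0.45 ± 0.43, and neither was called. OAS1 was at 0.247 and 0.241 CPM in parental Huh7 and 0.0966 and 0.761 CPM in DMSO Huh7, so Huh7-IR overlapped DMSO cells. OAS3 in Hep3B was at 1.16 and 0.928 CPM in parental, 7.49 and 3.44 CPM in DMSO, 0.12 and 0.0284 CPM in IR and 2.33 and 1.75 CPM in CR cells. EPSTI1 rose from 0.859 and 0.924 CPM in parental Huh7 to 11.1 and 5.51 CPM in IR and 6.58 and 9.62 CPM in CR cells. DMSO Huh7 had 0.855 and 2.44 CPM of EPSTI1, and no Hep3B library exceeded 0.0927 CPM.

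LGALS3BP, a secreted glycoprotein that binds galectins, showed the highest log2 fold change of the tested members in both Huh7 cultures. It was at 3.17 and 1.23 CPM in parental cells, 215.0 and 497.3 CPM in IR and 163.9 and 231.1 CPM in CR cells, with log2 fold changes of 6.75 ± 0.57 and 6.002 ± 0.57 (adjusted p = 1.9e-06 and 8.2e-06). Huh7 DMSO replicates were at 1.96 and 13.3 CPM. In Hep3B it was high already in parental cells, at 160.6 and 157.0 CPM, and reached 286.3 and 254.4 CPM in IR and 335.2 and 359.4 CPM in CR cells. All 4 resistant Hep3B libraries lay above the parental and DMSO ones, yet the log2 differences of 0.76 ± 0.57 and 1.123 ± 0.57 were not called (adjusted p = 0.35 and 0.14). The SE rests on a single spread for the gene over all 16 libraries. On the log2 scale its replicates lay further apart in Huh7 than in Hep3B. The resistant libraries of the 2 lines overlapped in level, while parental cells had a 72.1-fold lower level in Huh7 than in Hep3B.

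The RNA sensors in the list rose in both lines. IFIH1 encodes MDA5, a sensor of long double-stranded RNA, and was at 4.03 and 2.76 CPM in parental Huh7, 40.9 and 17.6 CPM in IR and 13.4 and 12.4 CPM in CR cells. In Hep3B it went from 11.1 and 9.24 CPM to 24.5 and 21.1 CPM in IR and 29.1 and 31.6 CPM in CR cells. Called in all 4 cultures, it had log2 fold changes of 2.68, 1.67, 1.09 and 1.49, each ± 0.30 (adjusted p = 1.5e-05, 0.00089, 0.015 and 0.0022). The Hep3B-IR call was lost without Hep3B parental replicate 2 (adjusted p = 0.11) or Hep3B-IR replicate 1 (adjusted p = 0.099). DDX60, a helicase that aids such sensing, was at 0.495 and 0.161 CPM in parental Huh7 and at 6.76 to 13.2 CPM in resistant Huh7. Hep3B-CR had 23.0 and 13.9 CPM of DDX60 against 2.28 and 1.27 CPM in parental and 3.87 and 3.45 CPM in IR cells, and CR exceeded IR by 2.02 ± 0.31 on the log2 scale (adjusted p = 0.0015).

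Of ISG15, its conjugating enzyme UBE2L6 and the HERC family ligases HERC5 and HERC6, 3 were higher in Hep3B-CR, 2 in Huh7-IR, 1 in Hep3B-IR and 0 in Huh7-CR. Of all tested genes, 2997 of 15019, 31.1%, 15.7% and 20.9% were higher in that order. With 4 members, counts of 1 and 0 cannot be told from such shares. ISG15 was at 2.13 and 1.73 CPM in parental Hep3B, 5.25 and 3.16 CPM in IR and 9.93 and 11.3 CPM in CR cells (log2 fold change 1.99 ± 0.51, adjusted p = 0.0085). UBE2L6 went from 1.94 and 2.04 CPM to 19.5 and 16.8 CPM in Hep3B-CR (2.67 ± 0.64, adjusted p = 0.0062), and HERC6 was higher as well (1.38 ± 0.39, adjusted p = 0.016). HERC5, the main ligase, was called in Hep3B-IR, at 7.56 and 7.16 CPM against 0.862 and 1.1 CPM (2.08 ± 0.53, adjusted p = 0.01). In Hep3B-CR it was also above parental cells, at 4.2 and 3.5 CPM, but was not called. The 2 resistant Hep3B cultures were not called apart in HERC5. Leaving out Hep3B parental replicate 2 or Hep3B-CR replicate 2 took the ISG15 call away (adjusted p = 0.057 and 0.052), and leaving out Hep3B parental replicate 1 or Hep3B-IR replicate 1 did so for HERC5 (adjusted p = 0.058 for each).

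In Huh7, ISG15 stood at 8.09 and 2.92 CPM in parental, 4.7 and 15.5 CPM in DMSO, 6.58 and 15.6 CPM in IR and 5.21 and 7.12 CPM in CR cells, and the groups overlapped. The replicates of Huh7-IR went opposite ways: HERC5 was at 7.13 and 0.408 CPM and UBE2L6 at 9.85 and 1.65 CPM, both lower in the second, while ISG15 was higher there. HERC5 (1.45 ± 0.53, adjusted p = 0.034) and HERC6 (1.60 ± 0.39, adjusted p = 0.004) were called higher in Huh7-IR. Parental Huh7 had 0.218 and 0.2545 CPM of HERC5, and DMSO Huh7 had 0.8275 and 1.063 CPM. Huh7-IR replicate 2 thus lay below both DMSO libraries in HERC5. ISG15 became called in Huh7-IR without Huh7 parental replicate 1 or Huh7-IR replicate 1 (1.52 and 1.48, adjusted p = 0.045 and 0.049).

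PARP14, an ADP-ribosyltransferase, and the partners PARP9 and DTX3L, an ADP-ribosyltransferase family protein and a ubiquitin ligase that work as a pair, lie close together on chromosome 3 and separated the lines. PARP14 was at 10.3 and 6.72 CPM in parental Hep3B, 62.9 and 49.4 CPM in IR and 95.7 and 80.4 CPM in CR cells. That was 6.6-fold and 10.3-fold above parental cells (log2 fold changes 2.60 ± 0.34 and 3.25 ± 0.34, adjusted p = 0.00014 and 2.5e-05). In Huh7 the gene was at 41.4 and 32.3 CPM in parental, 80.9 and 47.7 CPM in IR and 20.4 and 26.2 CPM in CR cells, and neither difference from parental cells was called. Huh7-IR exceeded Huh7-CR by 1.39 ± 0.34 (adjusted p = 0.019).

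DTX3L was at 42.6 and 32.8 CPM in parental Hep3B and 74.9 and 67.0 CPM in Hep3B-CR (0.90 ± 0.27, adjusted p = 0.021). In Huh7 it was lower in CR cells, at 51.8 and 69.9 CPM against 138.8 and 104.7 CPM (fold change -0.99 ± 0.27 on the log2 scale, adjusted p = 0.012). This lower call was lost against the DMSO libraries, at 104.1 and 52.6 CPM, where the difference was -0.29, and without Huh7 parental replicate 1 or Huh7-CR replicate 1. PARP9 was at 54.0 and 37.74 CPM in parental, 35.2 and 37.4 CPM in IR and 22.8 and 31.8 CPM in CR cells of Huh7. In Hep3B it was at 13.7 and 7.98 CPM in parental, 16.6 and 15.7 CPM in IR and 21.2 and 14.2 CPM in CR cells. It was called in no resistant culture, with differences of -0.31, -0.72, 0.58 and 0.68. PARP9 and DTX3L overlap head to head by 139 exonic bases on opposite strands.

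IFITM proteins, membrane proteins that restrict viral entry, also moved differently in the lines. IFITM2 was at 49.0 and 40.8 CPM in parental Hep3B and 18.8 and 19.4 CPM in Hep3B-IR (-1.19 ± 0.31, adjusted p = 0.011), the only member lower there. In Huh7 it was at 27.0 and 14.6 CPM in parental, 29.9 and 54.9 CPM in IR and 37.4 and 37.81 CPM in CR cells, called higher in both (1.00 ± 0.31 and 0.89 ± 0.31, adjusted p = 0.015 and 0.036). Against DMSO cells neither was called (0.73 and 0.62, adjusted p = 0.062 and 0.13). Without Huh7 parental replicate 2 these differences were 0.57 and 0.47 and were not called, nor was the IR one without Huh7-IR replicate 2 (0.57) or the CR one without either Huh7-CR library (0.90 and 0.88, adjusted p = 0.12 for each), and the Hep3B-IR call was lost without Hep3B parental replicate 1 (adjusted p = 0.077) or Hep3B-IR replicate 1 (adjusted p = 0.064).

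IFITM3 was at 159.0 and 121.1 CPM in parental Hep3B, 72.2 and 74.5 CPM in IR and 120.1 and 98.1 CPM in CR cells, and at 2.36 to 12.04 CPM in the 8 Huh7 libraries. The Hep3B-IR libraries lay below every other Hep3B library, but the difference of -0.91 ± 0.40 was not called (adjusted p = 0.1). Fitted on the Hep3B libraries alone, the same difference was called (limma, adjusted p = 0.004). Against DMSO cells the IFITM3 difference was -1.09 (adjusted p = 0.048). IFITM1 rose in Huh7-IR from 0.495 and 0.281 CPM to 1.67 and 2.19 CPM (1.08 ± 0.21, adjusted p = 0.00078), and in Hep3B it was at 3.11 and 2.25 CPM in parental, 1.42 and 1.65 CPM in IR and 2.6 and 2.11 CPM in CR cells, with no call against parental cells. Against DMSO cells IFITM1 was called lower in Hep3B-IR (-0.82, adjusted p = 0.0079). The 3 genes are close paralogs within a single cluster on chromosome 11, and only uniquely placed reads were counted, so shared stretches may be under-counted in each. Exons of IFITM1 and IFITM2 also share 351 and 31 bases with another annotated gene on the same strand.

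Of the MX GTPases, which trap viral nucleocapsids, MX2 was at 25.9 to 56.5 CPM in all 8 Huh7 libraries and at no more than 0.0662 CPM in Hep3B, and it was called in no resistant culture. Parental Huh7 held 5541 reads of it and parental Hep3B 3, a ratio of 1867 (95% counting interval 640 to 9083). MX1 was higher in Hep3B-CR, at 3.36 and 2.02 CPM against 0.31 and 0.38 CPM (1.43 ± 0.21, adjusted p = 0.00027), with 0.201 and 0.128 CPM in Hep3B-IR. MX1 shares 562 exonic bases with TMPRSS2 on the opposite strand. IFI44 and IFI44L, neighbours on chromosome 1 whose functions are less well defined, were called in Huh7-IR alone. IFI44 was at 6.08 and 1.57 CPM there against 0 and 0.0134 CPM in parental and 0.263 and 0.144 CPM in CR cells (IR above parental 2.08 ± 0.32, adjusted p = 0.00017). IFI44L was at 4.03 and 1.97 CPM against 0.0437 and 0.121 CPM in parental cells (1.84 ± 0.19, adjusted p = 9.4e-06).

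CMPK2, a mitochondrial nucleotide kinase, was the other member lower in Huh7-CR, at 0.108 and 0.196 CPM against 1.38 and 1.33 CPM in parental cells (-1.03 ± 0.19, adjusted p = 0.0012). It shares 351 exonic bases with RSAD2 on the opposite strand. In DMSO Huh7 it was at 3.7 and 4.47 CPM (1.11 ± 0.19, adjusted p = 0.01). PLSCR1, a scramblase that is also induced by interferon, was higher in Huh7-IR (1.37 ± 0.15), Hep3B-IR (0.78 ± 0.15) and Hep3B-CR (0.65 ± 0.15). The 6 untested members stayed low: OASL and RSAD2 reached 2.01 and 1.36 CPM in Huh7-IR replicate 1 and at most 0.728 and 0.179 CPM elsewhere, and the other 4 reached at most 0.879 CPM in any library.

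The DMSO cultures show how far untreated cells of a line lay apart. In Huh7 DMSO 1 member (CMPK2) was higher and 0 were lower, where 3.46% of tested genes were higher and 1.37% lower (4.83% in all). In Hep3B DMSO limma called 0 of 39 against 1.58% of tested genes in either direction, with 2 members past the fold threshold at an unadjusted p below 0.05, 2 called by DESeq2 and 0 by edgeR. Most members still leaned upward there: 27 of the 33 tested lay above 0. The median over all 39 was 0.18, beside 0.005 over all tested genes. In Huh7 DMSO 22 of the 33 lay above 0, with a median of 0.16 beside 0.05. The CMPK2 call was lost with edgeR (adjusted p = 0.063) and without either Huh7 parental library or Huh7 DMSO replicate 2, and without Huh7 DMSO replicate 1 the count was 4.

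Resistant cultures of a line were also compared with each other. In Huh7, 8 members were higher in IR than in CR and 0 were lower, against 8.23% and 5.43% of tested genes, led by IFI44 (1.83 ± 0.32), IFI44L (1.70 ± 0.19) and IFIT3 (1.49 ± 0.35), with adjusted p of 0.0043, 0.00031 and 0.017. Without Huh7-IR replicate 1 the IFI44 difference was 1.09 and that of IFIT3 0.72, and the IFIT3 call was lost without either Huh7-CR library (adjusted p = 0.075 and 0.098). In Hep3B the balance was turned around, with 0 members higher in IR than in CR and 8 lower, against 5.33% and 6.41%, led by UBE2L6 (-2.24 ± 0.64), DDX60 (-2.02 ± 0.31) and IRF1 (-1.71 ± 0.21). The Huh7 count depended on which libraries entered: it was 5 without Huh7-IR replicate 1, 15 without Huh7-IR replicate 2, 3 without either Huh7-CR library and 0 when only these groups were fitted. The Hep3B count was 4 or 5 with any 1 of the 4 libraries left out, and the UBE2L6 call was lost each time.

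Between the parental lines, 8 members were higher and 8 lower in Huh7 than in Hep3B, 20.5% in each direction, near the 18.9% and 23.7% of all tested genes. MX2 (5.28 ± 0.17), PARP14 (2.01 ± 0.34) and PARP9 (2.01 ± 0.31) were furthest above, and LGALS3BP (-5.71 ± 0.57), IFITM3 (-4.87 ± 0.40) and IFITM1 (-1.40 ± 0.21) furthest below. The count was 9 without Hep3B parental replicate 1.

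The resistant change itself, the mean of IR and CR minus parental, differed between the lines for 15 members by the interaction term. It was larger in Huh7 for 11 members and in Hep3B for 4, against 16.3% and 13.1% of tested genes. LGALS3BP changed by 6.38 in Huh7 and 0.94 in Hep3B on the log2 scale (difference 5.43 ± 0.70, adjusted p = 0.00015), and SAMD9L (3.50 ± 0.16) and OAS2 (3.23 ± 0.18) followed. PARP14 changed by 0.05 in Huh7 and 2.93 in Hep3B (difference -2.87 ± 0.41, adjusted p = 0.00032), before DTX3L (-1.37 ± 0.34) and IRF7 (-1.34 ± 0.18). With edgeR, SAMD9L, OAS2, EPSTI1, IRF7, IFIT3 and IFITM3 were not called for this difference, and with DESeq2 OAS2, EPSTI1, IRF7 and IFIT3 were not. Against DMSO cells the DTX3L difference was -0.52 (adjusted p = 0.26) and that of IFITM3 1.05 (adjusted p = 0.12), neither called. IFITM3 kept its call in 8 of 23 alternatives, and without Huh7 parental replicate 2 its difference was 0.91 (adjusted p = 0.23). Members higher in IR cells of both lines numbered 6 (27.3% of the 22 in Huh7 and 75% of the 8 in Hep3B): HERC5, IFIH1, IFIT2, IRF9, PLSCR1 and STAT2. For CR cells the shared members numbered 9 (64.3% of 14 and 52.9% of 17). Of all tested genes, 31.1% were higher in Huh7-IR, 15.7% in Hep3B-IR, 20.9% in Huh7-CR and 2997 of 15019 in Hep3B-CR. How many of all tested genes the lines shared was not counted, so these overlaps have no background to be set against.

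**Figure D3:**
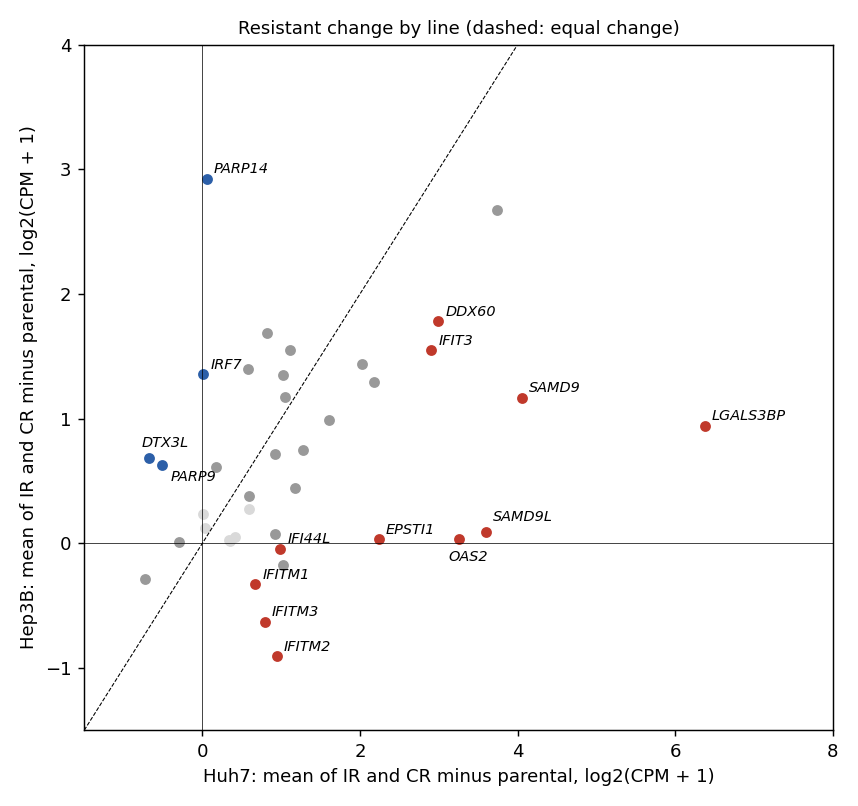
Mean change of IR and CR against parental cells in Huh7 (horizontal axis) and Hep3B (vertical axis), both as differences in log2(CPM + 1); each point is 1 of the 39 members and the dashed line marks equal change. Red points changed more in Huh7 (11) and blue points more in Hep3B (4) by the interaction term; gray points were not called and light gray points were not tested.

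Other parts of the pathway were read from separate gene lists. None of the 9 interferon genes listed (ligands) passed the filter: IFNB1 had 9 reads over all 16 libraries, IFNL1 and IFNL2 had 1 read each, and the other 6 had 0, which allows up to 0.039 to 0.0644 CPM a library. Of 9 receptor chains and kinases, 4 were higher in each Huh7 culture, 2 in Hep3B-IR and 4 in Hep3B-CR, and 0 were lower. Beside these and the following lists stand 31.1% and 20.9% of all tested genes higher in the Huh7 cultures, 15.7% in Hep3B-IR and 2997 of 15019 in Hep3B-CR. With edgeR the receptor chains and kinases called higher numbered 2 in each Huh7 culture, 2 in Hep3B-IR and 3 in Hep3B-CR. In Huh7 the type II receptor chain IFNGR1 (1.71 and 1.95), the type I chain IFNAR1 (0.67 and 0.76) and the kinase JAK2 (1.46 and 0.68) were higher in both cultures. In Hep3B the other type I chain IFNAR2 (1.04 and 1.25) and the kinase JAK1 (0.99 and 0.97) were higher in both.

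Among 15 sensors, adaptors and related effectors, 9 of them tested, 4, 2, 0 and 3 were higher and 0, 0, 2 and 0 lower (Huh7 before Hep3B, IR before CR). Over all 15 the shares higher are close to or below those of all tested genes. Over the 9 tested they are above them in Huh7-IR and Hep3B-CR and near them in Huh7-CR. TLR3 (1.19 and 1.13) and STING1 (2.24 and 1.09) were higher in both Huh7 cultures. Of 6 negative regulators, 5 of them tested, 1 was higher in each culture, near or below the share of all tested genes. This was SOCS3, which blocks JAK kinases (2.38, 2.29, 1.13 and 1.41). With edgeR 0 of the list were higher in Hep3B-IR. PIAS1 was lower in both Hep3B cultures (-0.67 and -1.41). Of 24 further interferon-induced genes, 22 of them tested, 10, 6, 5 and 15 were higher and 1, 3, 1 and 1 lower. The counts in Huh7-CR and Hep3B-IR are near the share of all tested genes. IFI35 (2.45, 1.91, 1.53 and 1.30) and the nuclear body gene SP100 (1.34, 1.20, 0.88 and 1.24) were higher in all 4 cultures, the GTPase gene GBP3 (4.41 and 4.72) in both Huh7 cultures and GBP2 (2.45 and 1.35) in both Hep3B cultures. LY6E was lower in both Hep3B cultures (-3.40 and -1.73) and had no more than 0.144 CPM in Huh7.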

How the data were processed

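The authors deposited 1 table of CPM values (reads of a gene scaled to a common total of gene-assigned reads, with no further factor) for 26258 Entrez genes in 16 libraries. The submitters' processing notes name STAR and hg19, and the study's methods describe counting of uniquely placed reads over RefSeq exons; the strand setting is not given in the sources used here. The sources disagree on the library kit and the sequencer, so the labels' poly(A) kit is given. Low values were whole multiples of 1 read, and 100% of values came out whole within 0.05 reads, which gave each library's total; on these recovered reads edgeR 4.0.16 and DESeq2 1.42.0 were run as alternatives.

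Of all IDs, 26111 matched a gene symbol. The 15019 genes that reached 1 CPM in 2 or more libraries were tested with limma 3.58.1 (trend) in R 4.3.3 on log2(CPM + 1), with 1 mean for each of 8 groups, and adjusted by Benjamini-Hochberg over all of them. The table's scaling left a median log2 difference over all genes of 0.19 in Huh7-IR and 0.11 in Hep3B-CR; with TMM factors these were 0.04 and 0.02, and 52.8% of Huh7-IR calls were higher in place of 63.6% (52.6% in place of 61.9% in Hep3B-CR). The p-values measure the spread between the libraries, which may be technical. The spread of a gene was estimated over all 16 libraries together, so the spread in Huh7 enters the Hep3B tests and the reverse. Intervals and floors cover counting error only. The fitting step was tested on simulated data.

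Values in the libraries compared are given for the 5 called members with the largest fold change in each direction in each resistant culture, the 3 largest in the other comparisons, and STAT2, IRF1, IRF7, IRF9, ISG15 and IFITM1 to IFITM3; other members were added after their values were seen. The members and lists were chosen with earlier results of these data known. Gene positions and exon overlaps are from GENCODE in GRCh37 and promoters from RefSeq in GRCh38.p14; the 2 builds were not mixed. IFIT2, MX2, OAS2, OASL, IRF7, IFITM2 and TRIM22 had no promoter entry. Alternatives covered the test, scaling, pseudocount, filter, libraries in the fit, reference group, replicate block and each library left out.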

Additional observations from a re-analysis of the deposited data

Results flagged for a closer look

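The change from parental to resistant cells differed between Huh7 and Hep3B for 15 members, by a limma test of the difference itself with adjustment over all tested genes (29.4% of which were called). On the log2(CPM + 1) scale the change was larger in Huh7 by 5.43 for LGALS3BP, 3.50 for SAMD9L, 3.23 for OAS2, 2.89 for SAMD9, 2.21 for EPSTI1, 1.85 for IFITM2, 1.42 for IFITM3, 1.36 for IFIT3, 1.21 for DDX60, 1.03 for IFI44L and 1.00 for IFITM1. The IFITM3 call held in 8 of 23 alternatives. The change was larger in Hep3B for the other 4, with Huh7 minus Hep3B at -2.87 for PARP14, -1.37 for DTX3L, -1.34 for IRF7 and -1.14 for PARP9. Against DMSO cells the DTX3L difference was -0.52 and was not called. Hepatocyte genes fell in the resistant cells of both lines, and their part in these differences was not tested.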

How the results depend on the processing

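No named gene that was called in either setting changed direction, while values that were not called could cross 0 (IRF1 line difference from -0.58 to 0.46): of 1871 values for 116 gene and comparison pairs, 1719 kept their side of the threshold, 130 lost the call and 22 gained it. Counts of members called moved by over 1.5 times as follows, and the cause was not tested. Hep3B-IR against parental (9 in all) had 15 with an unadjusted p, 14 with the line's libraries alone and 14 with only the groups compared. Huh7 DMSO against parental (1) had 2 with an unadjusted p, a pseudocount of 0.25 or quantile normalization, 5 with DESeq2 (3 higher, 2 lower), and 0 with a mean of at least 1 CPM, the line alone or only the groups compared; with edgeR the 1 call was a lower one. Hep3B DMSO (0) had 2 with an unadjusted p or DESeq2 and 3 with the line alone. Parental Huh7 against parental Hep3B (16) had 10 with a pseudocount of 4. Huh7-IR against CR (8) had 15 with an unadjusted p, 1 with the line alone and 0 with only the groups compared. Hep3B-IR against CR (8) had 4 with a pseudocount of 4 and 5 with no filter.

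With 1 library left out at a time, the counts ranged from 18 to 24 (Huh7-IR), 12 to 15 (Huh7-CR), 4 to 9 (Hep3B-IR), 11 to 15 (Hep3B-CR), 0 to 4 (Huh7 DMSO), 0 to 0 (Hep3B DMSO), 9 to 14 (parental lines), 3 to 15 (Huh7-IR against CR), 4 to 5 (Hep3B-IR against CR) and 11 to 19 (line difference). A group left with 1 library was assumed to vary like the others.

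Replicate numbers were not taken to pair the samples, since the labels tie them to no shared batch and correlations of same-numbered replicate differences between groups ran from -0.22 to 0.44, with 0.21 to 0.26 among Hep3B parental, IR and CR cells. With the replicate block the counts were 23, 16, 11 and 17 in the 4 resistant cultures and 15 for the line difference, and Hep3B DMSO had 1 in place of 0; no other count moved by over 1.5 times. Among the named genes the block took away the IFITM3 line difference (adjusted p = 0.054) and added IRF1 in Huh7-IR against CR (0.63, adjusted p = 0.041). With 2 libraries a group, differences in genes near 1 CPM are the least certain.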
